A study of Mus musculus with 6 samples.

Results

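The genes described here were 9 genes of blood coagulation and fibrinolysis, *F3*, *F7*, *F10*, *F13a1*, *Thbd*, *Plau*, *Plaur*, *Plat* and *Serpinb2*. They were chosen by gene symbol from a table of 55335 mouse genes, and every one of the 9 was found in it. RNA-seq had been done on bone marrow-derived macrophages (BMDMs), which were grown from marrow cells of *Cd177* WT mice for 7 days in 25 ng/ml M-CSF. The BMDMs were kept for 24 h with neutrophils, and the macrophages were then sorted as Ly6G- cells. The neutrophils had been isolated with magnetic beads from the spinal cord lesion of adult male C57BL/6 mice at 3 dpi (days post injury, after a contusion). They came from *Cd177* WT mice in 3 libraries and from *Cd177* KO mice, which lack the neutrophil surface protein CD177 in all their cells, in the other 3. Thus the BMDMs themselves carried the WT allele in both groups, all 6 cultures had been exposed to lesion neutrophils, and BMDMs grown without neutrophils were not analysed here. Whether neutrophils of several animals were pooled for 1 culture, or whether the 3 libraries of a group came from separate cultures, was not stated, so the p-values below measure only the spread between these libraries.

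Coagulation starts when tissue factor, a membrane protein, binds factor VII, and the complex activates factor X, which in turn leads to thrombin and to a fibrin clot that factor XIII cross-links. Fibrinolysis undoes this: urokinase and tissue plasminogen activator turn plasminogen into plasmin, urokinase is held at the cell surface by its receptor, and serpins block the activators. Macrophages are known to make several of these proteins themselves, and in injured tissue fibrin and plasmin are known to affect how leukocytes move and clear debris.

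Expression was given as FPKM (fragments per kilobase of transcript, relative to all fragments of the library), so levels could be compared between genes per unit of length. Depth implied by the smallest values was 17600000 to 20200000 fragments per library. *Cd177* was read at 0.544, 0.309 and 0.521 FPKM in the WT-labelled libraries and at 1.79, 1.84 and 2.28 FPKM in the KO-labelled ones. The sequenced BMDMs were *Cd177* WT throughout, so this gene does not check their genotype, but it ran against the group labels and groups are named below by their labels only (WT-labelled, KO-labelled). Replicate 3 of each group stood apart from the other libraries on the second principal component (13.5% of the variance). In the WT group its values, set against replicates 1 and 2, were shifted by a median log2 of 0.29 in transcripts under 1000 bases and by -0.52 in those over 8000 bases, and in the KO group by -0.02 and -0.28. In RNA from sorted cells, fewer cells of a type and less RNA per cell cannot be told apart. Markers of macrophages, 8 genes, summed to 6628 to 7990 FPKM in the WT-labelled libraries and 7230 to 7917 FPKM in the KO-labelled ones, most of it *Lyz2*. The sum hides differences of single markers. From the WT-labelled to the KO-labelled mean, *Cd14* went from 1010 to 99.4 FPKM and *Fcgr1* from 121 to 33.8 FPKM. *Adgre1* went from 241 to 297 FPKM and *Mertk* from 19.3 to 31.9 FPKM. As a set, the 17 neutrophil markers, *Cd177* among them, were present in both groups and summed to 202 to 262 and 558 to 572 FPKM, respectively. Of the 12 tested, 1 was lower and 10, *Cd177* included, were higher in the KO-labelled libraries (limma, adjusted p under 0.05). Of all tested genes, 10.5% were lower and 27.1% were higher.

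Before the levels are described, the DNA upstream of the members is shown, because 4 of them differed strongly between the groups and in both directions. For 6 members (*F3*, *F7*, *F10*, *F13a1*, *Plaur*, *Serpinb2*) the 250 bases before a transcription start were read from RefSeq (GRCm38.p6), giving 8 windows, since *F13a1* and *Serpinb2* have a pair of starts each and the windows of *Serpinb2* overlap. No windows were read for *Thbd*, *Plau* and *Plat*. The regions printed are chr1:107511173-107511422 (+) for *Serpinb2*, chr7:24462233-24462482 (+) for *Plaur* and chr8:13037058-13037307 (+) for *F10*, which fell. They are chr13:37050245-37050494 (-) for *F13a1*, which rose, and chr3:121723287-121723536 (+) for *F3*, the gene that starts the cascade. Each runs from 5′ to 3′ on the strand of its gene and ends at the base before the start. Capitals mark matches to any of the motifs listed after the sequences, on either strand.
Serpinb2: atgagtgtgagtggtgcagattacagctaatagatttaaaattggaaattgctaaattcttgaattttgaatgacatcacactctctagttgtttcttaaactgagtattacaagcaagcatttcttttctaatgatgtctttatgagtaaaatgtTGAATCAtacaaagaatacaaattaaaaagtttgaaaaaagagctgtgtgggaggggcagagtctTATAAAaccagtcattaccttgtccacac
Plaur: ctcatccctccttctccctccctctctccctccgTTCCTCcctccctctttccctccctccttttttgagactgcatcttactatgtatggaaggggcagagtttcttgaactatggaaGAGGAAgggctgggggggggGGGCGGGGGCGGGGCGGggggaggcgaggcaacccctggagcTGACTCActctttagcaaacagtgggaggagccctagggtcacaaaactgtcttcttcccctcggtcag
F10: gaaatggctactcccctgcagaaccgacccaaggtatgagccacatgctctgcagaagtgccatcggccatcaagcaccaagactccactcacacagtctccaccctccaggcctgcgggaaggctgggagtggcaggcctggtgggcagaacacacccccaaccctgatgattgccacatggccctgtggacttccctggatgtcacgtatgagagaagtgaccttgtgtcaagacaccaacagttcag
F13a1: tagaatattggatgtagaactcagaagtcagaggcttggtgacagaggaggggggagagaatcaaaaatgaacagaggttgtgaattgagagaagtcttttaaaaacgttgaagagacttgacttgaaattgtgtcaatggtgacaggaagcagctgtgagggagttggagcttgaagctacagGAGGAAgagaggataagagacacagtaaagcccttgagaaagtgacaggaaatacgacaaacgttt
F3: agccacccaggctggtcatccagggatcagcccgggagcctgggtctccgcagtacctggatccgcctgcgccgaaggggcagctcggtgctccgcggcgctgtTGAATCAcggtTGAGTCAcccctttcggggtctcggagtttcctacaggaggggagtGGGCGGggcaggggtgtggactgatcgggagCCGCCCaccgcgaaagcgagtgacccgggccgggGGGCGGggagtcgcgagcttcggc

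Matches were sought on both strands for AP-1 (TGANTCA), an interferon-stimulated response element (GAAA, any 2 bases, then GAAA again), Egr-1 (GCGNGGGCG), Sp1 (GGGCGG), PU.1 (GAGGAA), the kappaB motif and the core promoter element TATAAA, which is the so-called TATA box. The AP-1 heptamer, which reads the same on both strands, was found in 4 of the 8 windows and in 6.75% of all 32851 promoters of the same length. It lay at -94 to -88 relative to the first start of *Serpinb2* (the same site lies in its second window), at -69 to -63 in *Plaur*, and at -146 to -140 and -135 to -129 in *F3*. A TATA box stood at -29 to -24 in *Serpinb2* (2 of 8 windows, both of this gene, against 12.4% of all promoters). *Plaur* also held Sp1 matches that overlap each other and an Egr-1 match at -109 to -101, which shares its bases with them. Sp1 was found in 2 of 8 windows (*F3* and *Plaur*) against 32.7% of all promoters and Egr-1 in 1 against 4.70%. PU.1, the factor of the myeloid lineage, matched in 3 of 8 windows, those of *F7*, *Plaur* and the first start of *F13a1* (at -66 to -61), against 23.3%. The window of *F10* held no match to any of these letters, and no window held the interferon element (2.98% of all promoters) or the kappaB motif (3.90%). *Serpinb2* and *Plaur*, which were lower in the KO-labelled libraries, shared the AP-1 letters with *F3*, which was not called.

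All 9 members reached the mean of 0.5 FPKM needed for testing. With limma and Benjamini-Hochberg adjustment over the 13367 genes tested, 4 members (*F10*, *Plat*, *Plaur*, *Serpinb2*) were lower in the KO-labelled libraries at an adjusted p under 0.05, where 10.5% of all tested genes were, and 2 (*F13a1*, *Plau*) were higher, where 27.1% of all tested genes were. The other 3 (*F3*, *F7*, *Thbd*) did not pass, so 6 of 9 were called, where 37.6% of all tested genes were. The groups did not overlap in 4 members that lay lower and in 4 that lay higher, against 14.4% and 37.5% of all tested genes (51.9% in either direction). The median log2 fold change of the 9 members was -0.01 and that of all tested genes was 0.19. The same all-gene median was -0.01 when libraries were scaled by the median of ratios, and then 4 members were lower and 1 higher, where 16.9% and 15.4% of all tested genes were. Hence a small fold change depends on the scaling, whereas those of *F10*, *F13a1*, *Plaur* and *Serpinb2* were far larger. These 4 also passed the rule of the study, more than 2-fold at an unadjusted p under 0.05, as 11.1% of all tested genes did.

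**Figure D1:**
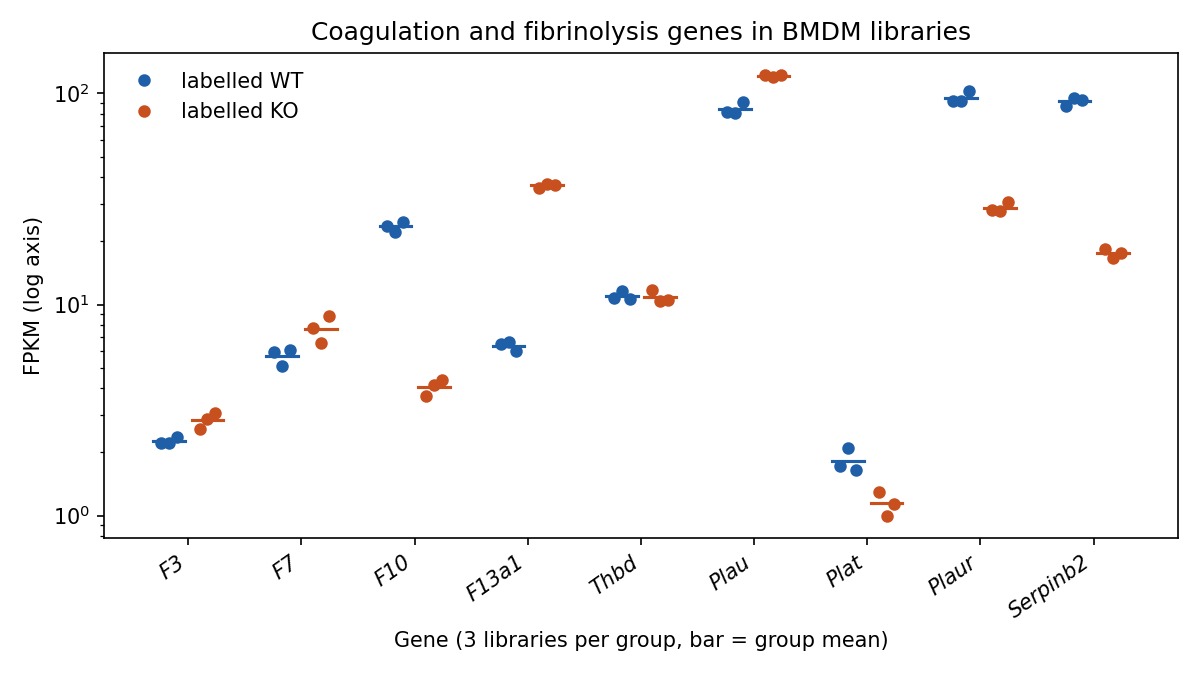
FPKM on a log axis of the 9 coagulation and fibrinolysis genes, with 1 point per library (3 libraries labelled WT in blue, 3 labelled KO in orange) and a bar at each group mean. *F10*, *Plaur* and *Serpinb2* lie well below in the KO-labelled libraries and *F13a1* well above, whereas the points of *Thbd* overlap at 10.4 to 11.7 FPKM.

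In the WT-labelled libraries, the most abundant members were *Plaur* (95.7 ± 5.92 FPKM, SD, n = 3), *Serpinb2* (91.7 ± 4.37) and *Plau* (84.7 ± 5.49), and the ranges of neighbours in this order overlapped. They were followed by *F10*, *Thbd*, *F13a1* and *F7*, of which the last pair overlapped, and by *F3* and *Plat*. In the KO-labelled libraries, *Plau* (121.2 ± 1.44 FPKM) came first and *F13a1* (36.7 ± 0.865) second, ahead of *Plaur*, *Serpinb2*, *Thbd*, *F7*, *F10*, *F3* and *Plat*, and no neighbouring ranges overlapped. *F10* thus stood above *Thbd* and *F7* in the WT-labelled libraries and below both in the KO-labelled ones.

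*F3* (ENSMUSG00000028128, chromosome 3 from 121723537 to 121735048, plus strand, GRCm38 as are all positions below) encodes tissue factor, the cell-surface trigger of coagulation. It was low, at 2.20, 2.21 and 2.36 FPKM in the WT-labelled libraries and 2.56, 2.88 and 3.05 FPKM in the KO-labelled ones. Every KO-labelled library lay above every WT-labelled library. The log2 fold change was 0.27 (95% confidence interval 0.02 to 0.52, limma, adjusted p = 0.0852), which did not pass the threshold, and it was 0.02 with quantile normalization.

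*F7* (ENSMUSG00000031443, chromosome 8 from 13026034 to 13035809, plus strand) encodes factor VII, the protease that tissue factor binds. Its levels were 5.98, 5.11 and 6.10 FPKM in the WT-labelled libraries and 7.73, 6.55 and 8.79 FPKM in the KO-labelled ones. The groups did not overlap, but replicate 2 of the KO group lay only slightly above the highest library labelled WT. The log2 fold change was 0.39 (standard error 0.13, interval 0.08 to 0.70, limma, adjusted p = 0.0546). Without replicate 2 of the KO group it was 0.49 (limma, adjusted p = 0.0424), and with TPM scaling 0.43 (limma, adjusted p = 0.0363), and both then passed. With the libraries scaled by the median of ratios, the upper quartile or quantiles it was 0.18, 0.19 and 0.23 (limma, adjusted p = 0.382, 0.362 and 0.267).

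*F10* (ENSMUSG00000031444, chromosome 8 from 13037308 to 13056676, plus strand) encodes factor X, whose active form makes thrombin. In FPKM it stood at 23.6, 22.2 and 24.6 in the WT-labelled libraries and 3.67, 4.16 and 4.40 FPKM in the KO-labelled ones. The groups were far apart, and the spread within each was small (23.5 ± 1.22 against 4.07 ± 0.372 FPKM, SD, n = 3 each). *F10* fell 5.76-fold, a log2 fold change of -2.39 (standard error 0.10, interval -2.62 to -2.16, limma, adjusted p = 9.38e-06), and stood at rank 147 when all tested genes were ordered by their fall. Over 19 other ways of processing the values it lay between -2.60 and -2.27 and passed the threshold in each.

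*F7* and *F10* are neighbours on the same strand, with 1498 bases between the end of *F7* and the start of *F10*, and *Proz* (protein Z, a cofactor in factor X inhibition) begins 4237 bases after *F10*. The annotation places no other gene in this span. *F10* fell, *F7* did not pass the test, and *Proz*, at 0.633, 0.716 and 0.560 FPKM in the WT-labelled libraries and 0.583, 0.453 and 0.474 FPKM in the KO-labelled ones, did not pass the test (log2 fold change -0.18, limma, adjusted p = 0.353). The ratio of *F7* to *F10* within a library was 0.253, 0.231 and 0.248 in the WT-labelled libraries and 2.11, 1.58 and 2.00 in the KO-labelled ones.

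*F13a1* (ENSMUSG00000039109, chromosome 13 from 36867178 to 37050244, minus strand) encodes the catalytic A subunit of factor XIII, the transglutaminase that cross-links fibrin, and in macrophages it is known as a gene of alternative activation. It was read at 6.51, 6.64 and 6.02 FPKM in the WT-labelled libraries and at 35.8, 37.4 and 37.0 FPKM in the KO-labelled ones. The 6 libraries fell into 2 tight and distant sets (6.39 ± 0.328 against 36.7 ± 0.865 FPKM, SD, n = 3 each). *F13a1* rose 5.75-fold, a log2 fold change of 2.44 (standard error 0.08, interval 2.25 to 2.62, limma, adjusted p = 3.6e-06), and stood at rank 43 when genes were ordered by their rise. Over 19 alternatives it lay between 2.22 and 2.51. Antisense genes within it, *Gm49144* and *Gm30489*, did not exceed 0.056 FPKM in any library, and whether the counting used strand is not given in the sources used here.

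*F13a1* is also made by monocytes and by platelets and their precursors. Of the 8 monocyte markers, 6 were tested. In the KO-labelled libraries 3 were lower and 2 were higher, against 10.5% and 27.1% of all tested genes. The summed level of the 8 was 46.8 to 51.6 FPKM in the WT-labelled libraries and 25.2 to 26.8 FPKM in the KO-labelled ones. Of the 11 platelet markers, 8 stayed under 1 FPKM in all libraries, and the sum, most of it *Pf4*, was 849.5 to 1351 FPKM in the WT-labelled libraries and 794 to 857 FPKM in the KO-labelled ones. Neither sum was higher in the libraries in which *F13a1* was higher. Of the 12 tested neutrophil markers, 10 were higher in the same libraries as *F13a1*, against 27.1% of all tested genes. The part of neutrophils in the rise of *F13a1* was not tested.

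*Thbd* (ENSMUSG00000074743, chromosome 2 from 148404466 to 148408188, minus strand) encodes thrombomodulin, the receptor that turns thrombin into an activator of protein C. Its levels were 10.8, 11.6 and 10.6 FPKM in the WT-labelled libraries and 11.7, 10.4 and 10.5 FPKM in the KO-labelled ones. The groups overlapped. The log2 fold change was -0.01, with an interval of -0.23 to 0.20 (limma, adjusted p = 0.926).

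*Plau* (ENSMUSG00000021822, chromosome 14 from 20836660 to 20843385, plus strand) encodes urokinase, the plasminogen activator bound at the cell surface. In FPKM it stood at 82.0, 81.1 and 91.0 in the WT-labelled libraries and 121.7, 119.5 and 122.3 FPKM in the KO-labelled ones. The groups did not overlap. *Plau* rose 1.43-fold, a log2 fold change of 0.52 (standard error 0.08, interval 0.33 to 0.70, limma, adjusted p = 0.00281). The call was lost when libraries were scaled by the median of ratios (0.29, limma, adjusted p = 0.0551) or by the upper quartile (0.30, limma, adjusted p = 0.0615).

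*Plat* (ENSMUSG00000031538, chromosome 8 from 22757727 to 22782844, plus strand) encodes tissue plasminogen activator, the other activator, and was the lowest member. It was read at 1.72, 2.09 and 1.64 FPKM in the WT-labelled libraries and at 1.29, 0.999 and 1.14 FPKM in the KO-labelled ones. The groups did not overlap, and the log2 fold change was -0.50 (interval -0.82 to -0.18, limma, adjusted p = 0.0264), in the opposite direction to *Plau*. The call was lost without replicate 1 or 2 of the WT group (log2 fold change -0.53 and -0.41, limma, adjusted p = 0.0599 and 0.0798) and without replicate 2 or 3 of the KO group (-0.43 and -0.50, limma, adjusted p = 0.0963 and 0.0657), while the fold change itself stayed close to its value with all libraries. With no filter on low values the fold change was the same and the adjusted p from limma 0.0751, with more genes tested.

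*Plaur* (ENSMUSG00000046223, chromosome 7 from 24462484 to 24475968, plus strand) encodes the urokinase receptor, which holds urokinase on the membrane. Its levels were 92.6, 91.9 and 102.5 FPKM in the WT-labelled libraries and 27.9, 27.7 and 30.5 FPKM in the KO-labelled ones. The groups did not overlap. *Plaur* fell 3.33-fold, a log2 fold change of -1.72 (standard error 0.09, interval -1.92 to -1.52, limma, adjusted p = 2.04e-05), and it lay between -1.95 and -1.67 over 19 alternatives. The receptor fell in the libraries in which its ligand gene *Plau* was higher.

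*Serpinb2* (ENSMUSG00000062345, chromosome 1 from 107511423 to 107535478, plus strand) encodes plasminogen activator inhibitor 2, a serpin of activated macrophages that blocks urokinase. In FPKM it stood at 86.8, 95.1 and 93.3 in the WT-labelled libraries and 18.3, 16.7 and 17.5 FPKM in the KO-labelled ones. The groups did not overlap, and their spread was small beside the difference (91.7 ± 4.37 against 17.5 ± 0.796 FPKM, SD, n = 3 each). *Serpinb2* fell 5.25-fold, a log2 fold change of -2.36 (standard error 0.08, interval -2.55 to -2.17, limma, adjusted p = 4.16e-06), and lay between -2.58 and -2.33 over 19 alternatives. The annotation of *Serpinb10*, which overlaps it on the same strand, did not exceed 0.468 FPKM.

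**Figure D2:**
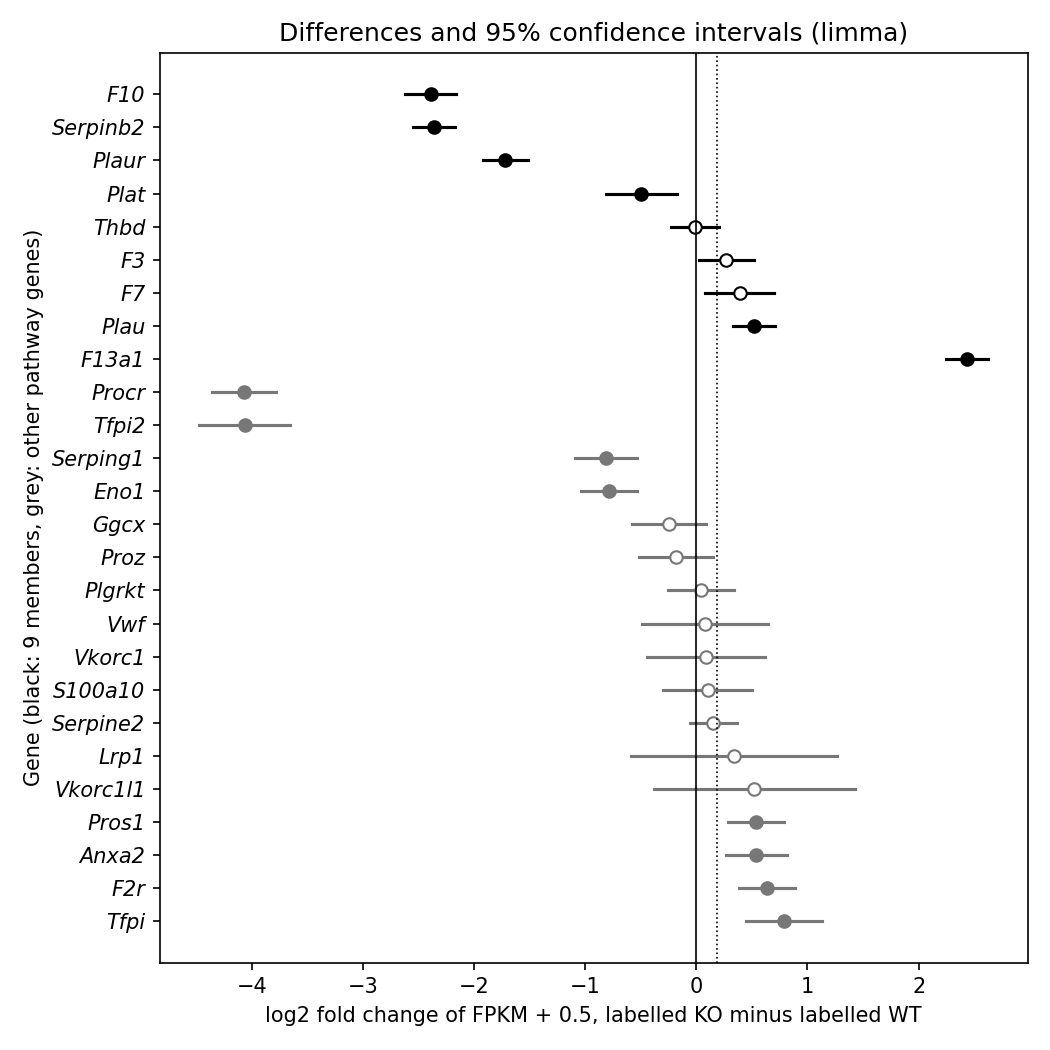
Log2 fold change of FPKM + 0.5 (labelled KO minus labelled WT) with 95% confidence intervals from limma for the 9 members in black and the 17 other tested pathway genes in grey, filled where the adjusted p was under 0.05, with the all-gene median of 0.19 as a dotted line. *F10* (-2.39) and *Serpinb2* (-2.36) lie at nearly the same distance below 0 as *F13a1* (2.44) lies above it, and *Procr* and *Tfpi2* lie lowest.

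To show the balance of activator, receptor and inhibitor independently of the scaling between libraries, 4 ratios were formed within each library. The pairs were chosen after their values had been seen. Urokinase to its inhibitor, *Plau* to *Serpinb2*, was 0.945, 0.853 and 0.975 in the WT-labelled libraries and 6.67, 7.17 and 6.98 in the KO-labelled ones, a 7.52-fold difference. *Plau* to *Plaur* went from 0.885 ± 0.00305 to 4.23 ± 0.19 (SD, n = 3 each). *F7* to *F10* went from 0.244 ± 0.0119 to 1.90 ± 0.281, a 7.71-fold difference. *Procr*, the endothelial protein C receptor, to *Thbd*, its partner in activating protein C, went from 13.9 ± 1.25 to 0.795 ± 0.0765. Groups did not overlap in any of the 4 ratios, and each had an exact two-sided permutation p of 0.1 (also 0.1 when adjusted over the 4), the smallest that 3 against 3 libraries allow. A ratio shows that 2 genes changed unequally and not which of them changed.

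**Figure D3:**
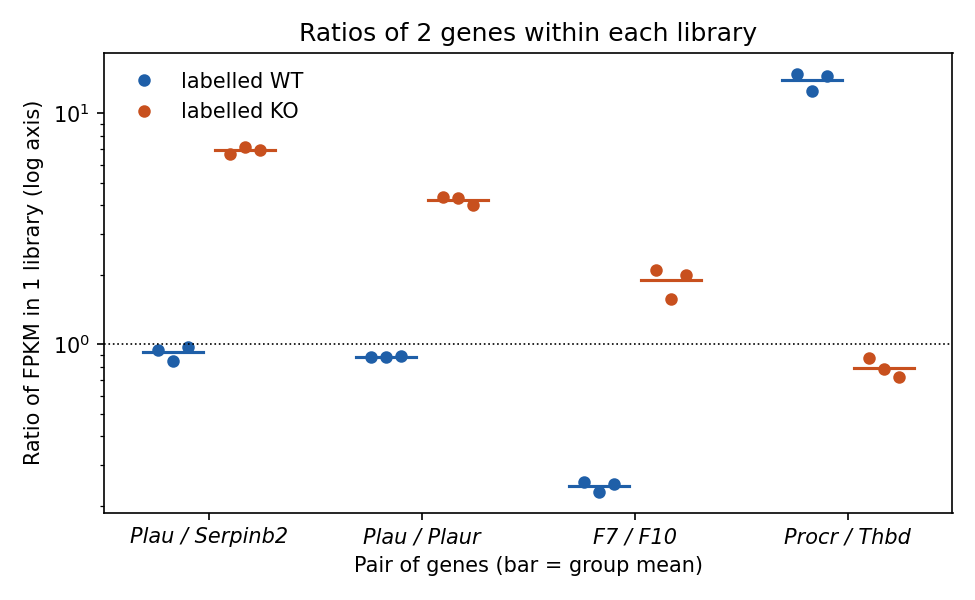
Ratio of the FPKM of 2 genes within each library on a log axis, with 3 libraries labelled WT in blue, 3 labelled KO in orange, a bar at each group mean and a dotted line at 1. *Plau* to *Serpinb2* and *F7* to *F10* cross from below 1 in the WT-labelled libraries to above 1 in the KO-labelled ones, and *Procr* to *Thbd* crosses the other way.

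A wider list held 41 other genes of coagulation, its inhibitors and fibrinolysis. Of these, 24 did not reach 0.5 FPKM, 6 of them listed at 0 in all libraries, and 17 were tested. In the KO-labelled libraries, 4 (*Tfpi2*, *Procr*, *Serping1*, *Eno1*) were lower and 4 (*Tfpi*, *Pros1*, *F2r*, *Anxa2*) were higher, beside the 10.5% and 27.1% of all tested genes, and the median log2 fold change of the 17 was 0.09. Of the 13 other coagulation factors only *Vwf* was tested, and it did not pass. None of the 3 genes of the vitamin K cycle (*Ggcx*, *Vkorc1*, *Vkorc1l1*), which completes factors VII and X, passed the test. *Ggcx*, the carboxylase itself, had a log2 fold change of -0.25 (limma, adjusted p = 0.211), but it was lower at -0.45, -0.44 and -0.45 with median-of-ratios, upper-quartile and quantile scaling (limma, adjusted p = 0.0356, 0.0331 and 0.0285).

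The inhibitors of coagulation and the protein C system held the largest differences, with 6 of 11 genes tested. Of these, 3 were lower and 2 higher, against 10.5% and 27.1% of all tested genes. *Procr* was read at 159, 145 and 153 FPKM in the WT-labelled libraries and at 10.3, 8.12 and 7.63 FPKM in the KO-labelled ones, far apart and more abundant in the former than any of the 9 members. It fell 17.6-fold, a log2 fold change of -4.07 (limma, adjusted p = 3.07e-06), while *Thbd*, which works with it, overlapped between the groups. *Tfpi2*, which encodes a Kunitz-type inhibitor of plasmin and of the tissue factor complex, was read at 11.4, 11.6 and 13.7 FPKM in the WT-labelled libraries and at 0.421, 0.112 and 0.280 FPKM in the KO-labelled ones. Its log2 fold change was -4.06 (limma, adjusted p = 1.08e-05), and it ran from -5.15 to -3.39 over the alternatives, since the values of the KO-labelled libraries were below the pseudocount. *Tfpi2* reached the filter only through the WT-labelled libraries. *Tfpi*, the main inhibitor of the tissue factor complex, moved the other way, from 1.51, 1.48 and 1.85 FPKM to 2.84, 2.88 and 3.78 FPKM (log2 fold change 0.79, limma, adjusted p = 0.00544). *Pros1*, which encodes protein S, the cofactor of protein C, was also higher (0.54, limma, adjusted p = 0.00742), and *Serping1*, which encodes the C1 inhibitor, was lower (-0.81, limma, adjusted p = 0.00205).

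On the side of fibrinolysis, among plasminogen and its receptors, 5 of 6 genes were tested. *Anxa2*, which encodes annexin A2, was higher (0.54, limma, adjusted p = 0.0105), its partner *S100a10* did not pass, and *Eno1*, which encodes a glycolytic enzyme that also binds plasminogen, was lower (-0.79, limma, adjusted p = 0.00161). Reads of *Eno1* and its near copy *Eno1b* may have been divided between them in the counting, so its value is uncertain, and their sum was 312, 315 and 366 FPKM in the WT-labelled libraries and 155, 202 and 215 FPKM in the KO-labelled ones. Of the 4 protease-activated receptors only *F2r*, the main thrombin receptor, reached the filter, at 2.93, 3.54 and 3.19 FPKM against 5.01, 5.09 and 5.73 FPKM (log2 fold change 0.64, limma, adjusted p = 0.00417).

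The calls of *Pros1* and *Anxa2* were lost, as that of *Plau* was, when libraries were scaled by the median of ratios or the upper quartile. With a filter of 0.1 in place of 0.5 FPKM, 22 pathway genes were tested and 6 were lower and 4 higher, against 8.54% and 21.4% of all genes tested in that fit. The genes added, named after their values were seen, were *F5* (factor V, the cofactor of factor X) and *F2rl1* (protease-activated receptor 2, which the tissue factor complex cleaves). *F2rl1* was read at 0.937, 0.725 and 1.01 FPKM in the WT-labelled libraries and at 0.062, 0.091 and 0.0593 FPKM in the KO-labelled ones. It reached the filter of 0.1 FPKM only through the WT-labelled libraries, since its mean in the KO-labelled ones was 0.0707 FPKM.

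**Figure D4:**
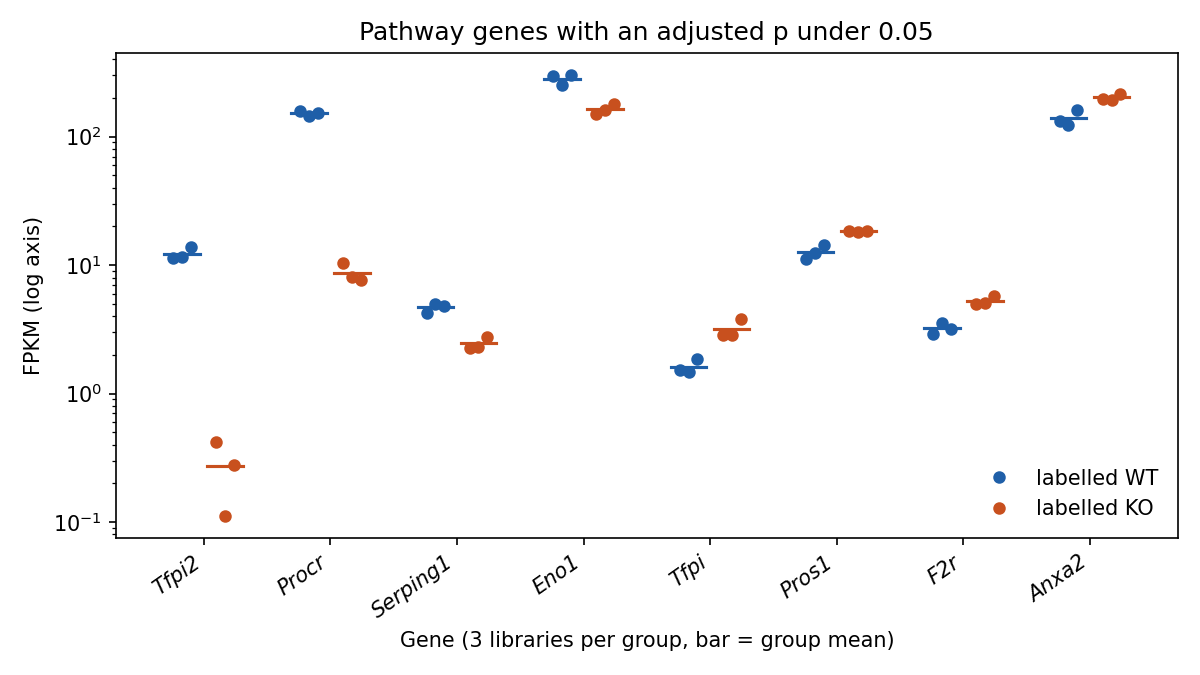
FPKM on a log axis of the 8 other pathway genes with an adjusted p under 0.05, with 1 point per library (3 labelled WT in blue, 3 labelled KO in orange) and a bar at each group mean. *Procr* and *Tfpi2* are the farthest apart. The groups do not overlap in any of the 8, but choosing genes by their p leaves little room for overlap. Of all tested genes, 51.9% do not overlap either.

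Other cells known for these genes were checked by their markers. Of the 8 endothelial markers, 6 were under 1 FPKM in every library. The sum of the 8 was 3.56 to 5.54 FPKM in the WT-labelled libraries and 3.85 to 4.96 FPKM in the KO-labelled ones. *Vwf* was the largest single part of it in every library. Of the 3 tested, 1 was lower and none higher, against 10.5% and 27.1% of all tested genes. It was *Kdr*, a receptor for VEGF, at 0.913 ± 0.249 FPKM in the WT-labelled libraries and 0.186 ± 0.0656 FPKM in the KO-labelled ones (SD, n = 3 each). The groups did not overlap (log2 fold change -1.03, limma, adjusted p = 0.0049), but *Kdr* reached the filter of 0.5 FPKM only through the WT-labelled libraries. Among the markers under the filter, *Egfl7* (mean 0.329 against 0.665 FPKM) and *Esam* (0.070 against 0.178 FPKM) were higher in the KO-labelled libraries without overlap. *Cdh5* (0.464 against 0.248 FPKM) was lower without overlap. The part of endothelial cells in the levels of *Procr* and *Thbd* was not tested. Of the 8 markers of hepatocytes, the source of plasma factors VII and X, 7 were found by symbol, and the sum was 0.0291 to 3.33 and 0.928 to 1.41 FPKM. Fibroblast markers were not near 0. They summed to 417 to 597 FPKM in the WT-labelled libraries, most of it *Col1a1*, and to 493 to 555 FPKM in the KO-labelled ones. Of the 6 tested, 3 were lower and none higher, against 10.5% and 27.1% of all tested genes. The part of fibroblasts in the levels of *Plau* and *Plat* was not tested. Among the 8 macrophage markers, all tested, *Fcgr1* and *Cd14* were lower and *Adgre1* and *Mertk* higher in the KO-labelled libraries, against 10.5% and 27.1% of all tested genes.

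The genes whose pattern over the 6 libraries lay nearest to each member were sought in the 11751 genes whose mean was 1 FPKM or more, as the distance of log2 values centred on each gene's mean. For *F10* these were *Slfn4*, *Clec7a* and *Irgm1* (distances 0.13, 0.13 and 0.15), and for *Serpinb2* *Tmeff1*, *Has2* and *Parp10* (0.12, 0.16 and 0.17). For *Plaur* they were *Dck*, *Ccr1* and *Smpdl3b* (0.12, 0.13 and 0.14). *F13a1* had *Wwp1* nearest at 0.13, then *Rspo2* and *Fgd2* at 0.22 and 0.23. With 2 groups of 3 libraries such a distance mostly reflects a like size of the group difference.

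**Figure D5:**
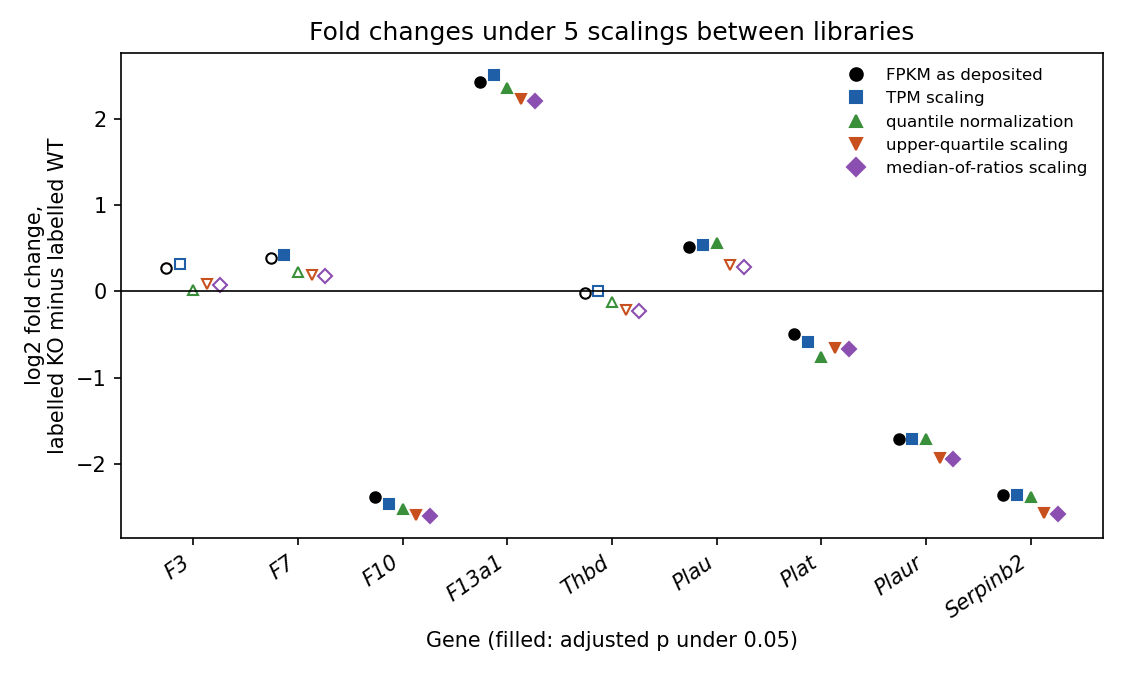
Log2 fold change (labelled KO minus labelled WT) of the 9 members with the FPKM as deposited and under 4 other scalings between libraries, filled where the adjusted p from limma was under 0.05. *F13a1*, *F10*, *Plat*, *Plaur* and *Serpinb2* keep their direction and stay filled in all 5, whereas *Plau* loses its call under upper-quartile and median-of-ratios scaling.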

How the data were processed

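The authors deposited FPKM per gene for 6 libraries. The processing notes of the submitters name fastp 0.17.1, HISAT2 2.1.0, DESeq2 1.18.1 and R 3.4.3. The quantifier, annotation and genome build are not given in the sources used here, and the labels and the paper's methods name different RNA reagents, library kits and sequencers. Since FPKM divides by the total of each library, large changes in abundant genes shift all others. Of the 55335 identifiers, 55154 (99.7%) matched GENCODE M21 (GRCm38), which gave symbols and positions. Multiples of a smallest value gave the depth, but the share of low values within 0.1 of a whole number of steps was only 39.7% to 43.9% (20% by chance), so no count test was run.

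Values were tested as log2(FPKM + 0.5), a scale that understates changes of low genes, with limma 3.58.1 in R 4.3.3 (lmFit, eBayes with trend, two-sided, no covariates). Genes whose mean FPKM was 0.5 or more, 13367 in all, entered with Benjamini-Hochberg adjustment. Fold changes without log2 are ratios of mean FPKM. The steps were tested on simulated data. Alternatives covered pseudocounts, filters, scalings, the variance estimate, a replicate block, thresholds and left-out libraries, and leaving out both libraries numbered 3 was added after the data were seen. Members, gene lists, markers and motifs were chosen with earlier results of these data known. All members were named, together with tested genes of the wider list and the 3 genes nearest to a member. A gene of the wider list is not reported here. Sequences came from RefSeq (GRCm38.p6). Python 3.11.15 with pandas 2.3.3, numpy 2.4.6, scipy 1.17.1 and matplotlib 3.10.9 was used.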

Additional observations from a re-analysis of the deposited data

How the results depend on the processing

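*F10*, *F13a1*, *Plaur* and *Serpinb2* kept their direction and their call in all 19 alternative fits, and *F3* was called in none (adjusted p from limma 0.0703 to 0.914). With median-of-ratios scaling, 1 member was higher (2 with the deposited values) and 2 pathway genes were (in place of 4), with the same counts of 1 and 2 under upper-quartile scaling, and 47.7% and 49.6% of all calls were then higher, against 72.0%. With the rule of the study (more than 2-fold, unadjusted p under 0.05), 1 member was higher, 2 pathway genes were lower and 0 higher (limma; 4 at an unadjusted p under 0.05 with no fold asked or adjusted), and 1485 of all genes were called in place of 5027. At an adjusted p under 0.01, 2929 were. Without both libraries numbered 3, 7 pathway genes were higher, with *Vkorc1* (0.47), *S100a10* (0.25) and *Lrp1* (0.16) added. Leaving out 1 library gave 3479 to 5966 calls in all, 2 to 3 members higher and 3 to 4 lower, and 4 to 5 pathway genes higher and 4 to 5 lower. *Ggcx* was lower with median-of-ratios, upper-quartile and quantile scaling (-0.45, -0.44 and -0.45), without replicate 3 of the WT group (-0.39) and without both libraries numbered 3 (-0.37). Without replicate 3 of the WT group *S100a10* was higher (0.30). The log2 fold change changed sign in genes that were not called. For *Thbd* it was 0.0034 with TPM scaling and -0.066 to 0.026 with 1 library left out. For *Vwf* it was -0.11, -0.097 and -0.16 with median-of-ratios, upper-quartile and quantile scaling, -0.023 without both libraries numbered 3, and -0.17 to 0.22 with 1 left out. With median-of-ratios and upper-quartile scaling it was -0.14 and -0.12 for *Vkorc1* (-0.023 to 0.31 with 1 left out), -0.17 and -0.16 for *Plgrkt* (-0.096 with quantile scaling, -0.038 to 0.14 with 1 left out), -0.13 and -0.11 for *S100a10*, and -0.067 and -0.053 for *Serpine2*. *Lrp1* ran from -0.092 to 0.59 with 1 left out. The cause was not tested. Same-numbered libraries of the 2 groups deviated together only weakly (correlations 0.12, 0.04 and 0.26 for replicates 1, 2 and 3). Between replicates 1 and 2 of unlike number the correlations were 0.12 and 0.16. Those joining a replicate 3 to a replicate 1 or 2 were -0.23 to -0.13. The libraries numbered 3 thus deviated together the most, and what they share was not tested. In the main fit the numbers were not read as pairs. With the replicate block 5934 genes were called (4253 higher, 1681 lower), and *F7* was among them (0.39, limma, adjusted p = 0.0174). Values near the pseudocount, such as *Tfpi2* in the KO-labelled libraries, are limited by depth.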
